A study of Mus musculus with 4 samples.

Results

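Chemokines and their receptors were examined in cultured mouse astrocytes that carried a short hairpin RNA (shRNA) against Phf8 or a control shRNA. The set comprised 10 genes chosen by symbol, out of 55421 genes listed, namely the ligands Cxcl1, Cxcl5, Cxcl10, Ccl2, Ccl7, Cxcl12, Cxcl14 and Cx3cl1 and the receptors Cxcr4 and Ackr3. All 10 were found in the 4 count files. The astrocytes of both groups had been differentiated in serum-containing medium from neural stem cells of the C57BL/6J strain and then infected with a lentivirus, which carried the control shRNA in 2 libraries and the Phf8 shRNA in the other 2. An shRNA lowers the transcript it targets, and Phf8 encodes a Jumonji-type enzyme that demethylates histones. Hairpin sequences, and whether the libraries of a group came from separate cultures or infections, were not stated in the sources used here. The p-values therefore reflect only how far these libraries differed within a group, which may be technical variation.

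Chemokines are small secreted proteins that attract cells by binding receptors coupled to G proteins, and they are named CC, CXC or CX3C after the spacing of their first cysteines. Some, such as Ccl2 and Cxcl10, are induced by inflammatory signals through NF-kB and interferon pathways and are known products of activated astrocytes. Others, such as Cxcl12, act in development and tissue upkeep, where Cxcr4 passes the signal on and the atypical receptor Ackr3 binds and removes the ligand.

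Reads assigned to genes ranged from 36839530 to 44724759 per library. Mitochondrial ribosomal RNA took 21.2% and 22.5% of the control reads and 27.8% and 28.2% of the Phf8 shRNA reads. Leaving out mitochondrial genes and the 20 most abundant other genes changed neither the direction nor the call of any chemokine gene tested. Levels are given as reads or as CPM, in which a gene's reads are divided by the depth of the library, scaled with TMM (trimmed mean of M-values), a normalisation that assumes most genes do not differ, and group means are given ± SD of n = 2 libraries. Fold changes put Phf8 shRNA over control shRNA, each with its standard error (SE). Phf8 itself stood at 53.2 and 53.0 CPM in the control and at 44.3 and 42.2 CPM in the Phf8 shRNA libraries. This was a 1.23-fold fall (log2 -0.30 ± 0.06 SE), where the median absolute log2 fold change of all genes tested was 0.32. The reduction was thus slight and of ordinary size among these genes. Its Benjamini-Hochberg adjusted p was 1.72e-06 in the quasi-likelihood test of edgeR. A gene is said to have risen or fallen where its adjusted p in that test, over all 21042 genes tested, was under 0.05. Because these are bulk samples, fewer cells of a type and less RNA per cell cannot be told apart. The markers of astrocytes were abundant but lower with the Phf8 shRNA. Their summed level over 8 genes went from 8887 and 8641 CPM to 5756 and 5133 CPM, with Gfap, Aqp4, Aldoc, Sox9, Aldh1l1 and S100b lower, Slc1a2 higher and Slc1a3 not passing the test. Gfap carried most of that difference, and the other 7 summed to 4811 and 4780 against 4439 and 4109 CPM. That sum joins changes in opposite directions. Slc1a2 rose from a mean of 135 to 974 CPM, while Aqp4 fell from 1336 to 532 and Aldoc from 1139 to 619 CPM.

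The chemokine genes did not move together. With the Phf8 shRNA, Cxcl5, Cxcl10 and Cx3cl1 rose while Cxcl14 and both receptors, Cxcr4 and Ackr3, fell. Ccl2 was tested and did not pass. Cxcl1, Ccl7 and Cxcl12 were at or near the limit of detection in every library and were not tested. Of the 10 genes 7 were tested and 6 of those changed, and of all genes tested 52.1% changed, 24.8% rising and 27.3% falling. Past the test and at least 2-fold changed were 4 of the 7, of which Cxcl5 and Cxcl10 were higher and Cxcl14 and Ackr3 lower. This compares with 14.2% of all genes tested, 5.5% higher and 8.71% lower. The filter on low counts passed 7 members, whose median log2 fold change was -0.01, against 0.01 over all genes tested. Cxcl5 passed that filter through its Phf8 shRNA libraries, so its change and the count that includes it were in part set by the filter.

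**Figure D1:**
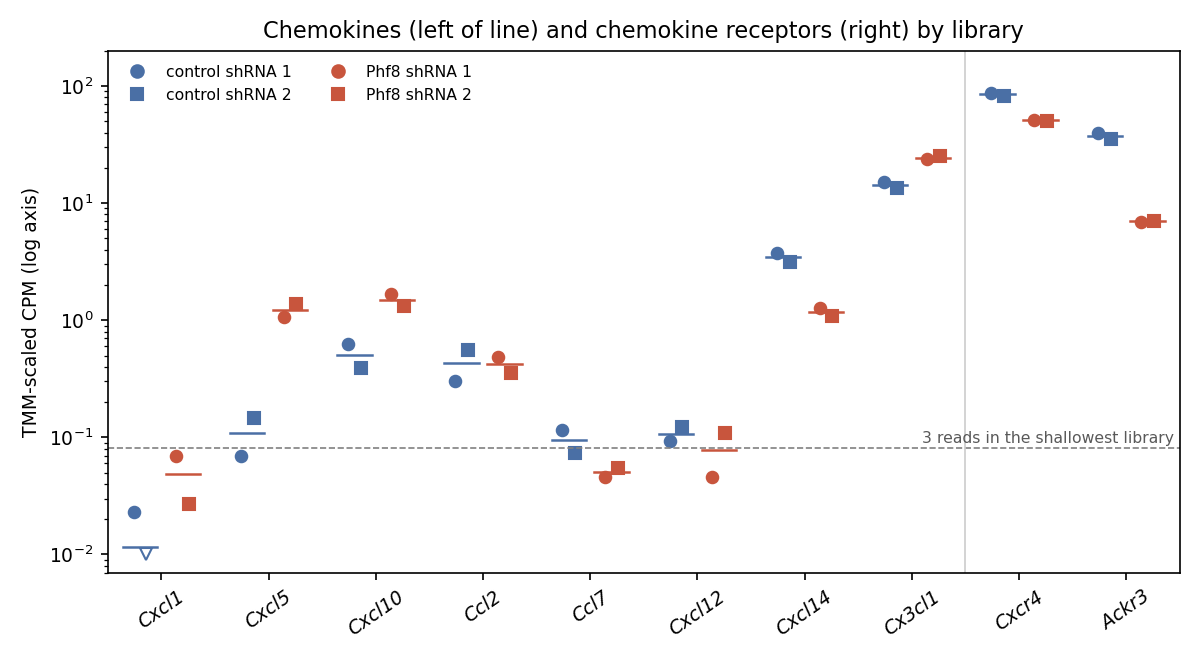
Level of each of the 10 genes in each library, in TMM-scaled CPM on a log axis, with short lines for group means, an open triangle at the bottom for 0 reads and a dashed line at 3 reads in the shallowest library. Control (blue) and Phf8 shRNA libraries (red) stand apart for Cxcl5, Cxcl10, Cxcl14, Cx3cl1, Cxcr4 and Ackr3. Ccl7 and Cxcl12 lie around the dashed line and Cxcl1 lies below it.

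In control astrocytes the 2 receptors exceeded every ligand of the set when levels were set per exonic length (TMM-scaled CPM per kilobase of exon). Cxcr4 had a mean level of 46.9 and Ackr3 one of 11.2 on this scale. Cx3cl1 followed at 3.64 and Cxcl14 at 1.88. Ccl2 (0.264 and 0.494) and Cxcl10 (0.277 and 0.174) overlapped between libraries, and Ccl7, Cxcl5, Cxcl12 and Cxcl1 had means of 0.118, 0.0579, 0.0131 and 0.00616. The order differed in the Phf8 shRNA libraries, where Cx3cl1 (6.19) stood above Ackr3 (2.09) on the same scale and below Cxcr4 (28.2). There Cxcl10, Cxcl5 and Cxcl14 had mean levels of 0.666, 0.658 and 0.646, and their libraries overlapped.

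Among the inflammatory CXC ligands, Cxcl5 had the largest relative change of the 7 genes tested. Cxcl5 (ENSMUSG00000029371, plus strand of chromosome 5, 90759360 to 90761624, mm10 build) encodes a chemokine that attracts neutrophils. It had 3 and 6 reads in the control libraries and 46 and 51 reads in the Phf8 shRNA libraries. Both Phf8 shRNA libraries were therefore well above both controls, whose own level was close to the floor of 3 reads. The depth-adjusted ratio of reads was 11.4 (95% exact binomial interval 5.74 to 25.6), where such intervals cover counting error only. The log2 fold change was 3.47 ± 0.41 (SE), with an edgeR adjusted p of 1.87e-16. Of the genes tested, 1.00% had a larger absolute change. Cxcl5 was tested only through its Phf8 shRNA libraries, so its p-value and this rank were in part set by the filter on low counts. The few control reads limit the size of the fold, since the log2 fold change was 4.08 without control shRNA replicate 2 and 3.02 without control shRNA replicate 1.

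Cxcl1, which encodes another neutrophil-attracting ligand and lies in the same gene cluster (chromosome 5, 90891241 to 90893115, plus strand), had 1 and 0 control reads and 3 and 1 Phf8 shRNA reads. The ratio of its reads, 4.21, had a counting interval from 0.417 to 207, so no difference was detectable at this depth. The other genes of the cluster between and beside them gave almost nothing. Cxcl2, Cxcl3, Cxcl15, Pf4 and Ppbp had 0 reads in all 4 libraries. A count of 0 allows up to 0.0693 to 0.0817 CPM in a library, which is what 3 reads amount to.

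Cxcl10 (ENSMUSG00000034855, minus strand of chromosome 5, 92346638 to 92348889) encodes a ligand of Cxcr3 that is induced by interferons. It had 27 and 16 reads in the control and 72 and 49 reads in the Phf8 shRNA libraries. In CPM these were 0.624 and 0.391 against 1.66 and 1.33, and the groups did not overlap, as was the case for 73.9% of all genes tested. Cxcl10 rose with a log2 fold change of 1.56 ± 0.27 (SE) and an edgeR adjusted p of 6.45e-08. Art3, a gene on the opposite strand that spans Cxcl10, overlaps 5.91% of its exonic length. Art3 had 35 and 22 control reads and 20 and 13 Phf8 shRNA reads, a difference in the other direction that did not pass the test (edgeR adjusted p = 0.0733). Cxcl9, a neighbouring ligand gene of the same receptor, had 1 read in all libraries together, and Cxcr3 had 0. Cxcl11, also a neighbour, is annotated as a polymorphic pseudogene and had 0 reads.

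The promoters of Cxcl1 and Cxcl10 are shown because both carry the recognition motif of NF-kB, while only Cxcl10 was detected well enough to be tested. Each sequence is from RefSeq (GRCm38.p6, the mm10 build), spans 250 bases before to 50 after the start site, and is written 5′ to 3′ on the strand of the gene, at chr5:90890995-90891294 (plus strand) and chr5:92348840-92349139 (minus strand). Capitals mark matches to any of 5 motifs that were searched on both strands: the NF-kB consensus, an interferon-response-like element (TTTC, any 2 bases, then TTTC), the AP-1 site (TGANTCA), a STAT site (TTCNNNGAA) and TATAAA.
Cxcl1: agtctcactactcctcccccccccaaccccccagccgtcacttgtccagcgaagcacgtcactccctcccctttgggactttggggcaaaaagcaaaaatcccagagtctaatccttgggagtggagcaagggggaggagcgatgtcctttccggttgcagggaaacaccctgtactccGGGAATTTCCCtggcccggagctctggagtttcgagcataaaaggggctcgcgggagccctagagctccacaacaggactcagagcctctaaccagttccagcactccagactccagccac
Cxcl10: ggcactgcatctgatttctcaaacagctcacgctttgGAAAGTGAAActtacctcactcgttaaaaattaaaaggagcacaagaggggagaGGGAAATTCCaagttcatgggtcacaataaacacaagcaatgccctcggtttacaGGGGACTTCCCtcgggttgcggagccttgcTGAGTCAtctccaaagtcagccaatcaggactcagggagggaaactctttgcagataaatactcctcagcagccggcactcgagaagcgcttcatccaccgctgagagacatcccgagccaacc
In Cxcl1 the capitals are a pair of overlapping NF-kB matches that end 61 bases before the start. In Cxcl10 they are, in order, an interferon-response-like element, an NF-kB match, a pair of overlapping NF-kB matches and an AP-1 site. Of 32841 RefSeq promoters of the same length, 8.46% held an NF-kB match, 3.44% the interferon-response-like element, 7.81% the AP-1 site, 8.30% the STAT site and 13.6% TATAAA. A match is a description of the letters and does not show that a factor was bound.

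The CC ligands Ccl2 and Ccl7, which attract monocytes and lie next to each other on chromosome 11 (82035571 to 82037453 and 82045712 to 82047525, both on the plus strand), were scarce. Ccl2 had 13 and 23 control reads and 21 and 13 Phf8 shRNA reads, so the groups overlapped fully. Its log2 fold change was -0.01 ± 0.38 (SE), with an edgeR adjusted p of 0.982. The ratio of reads was 0.994 with a counting interval of 0.604 to 1.64. Ccl7 had 5 and 3 control reads and 2 and 2 Phf8 shRNA reads, for which the read ratio was 0.526 (counting interval 0.116 to 1.97), and no difference was detectable. Ccl8, Ccl12 and Ccl1 from the same cluster had 0 reads in all libraries and Ccl11 had 1.

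Among the ligands that are less tied to inflammation, Cxcl14 fell, Cx3cl1 rose and Cxcl12 was barely present. Cxcl12 (chromosome 6, 117168535 to 117181367, plus strand), the ligand of both Cxcr4 and Ackr3, had 4 and 5 control reads and 2 and 4 Phf8 shRNA reads. Its ratio of 0.702 had a counting interval of 0.206 to 2.21, so at this depth a difference was not detectable. The astrocytes thus had abundant transcripts of its receptors and almost none of the ligand gene itself.

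Cxcl14 (ENSMUSG00000021508, chromosome 13, 56288643 to 56296551, minus strand) encodes a CXC chemokine found in epithelia and brain. It had 161 and 129 reads in the control and 55 and 40 reads in the Phf8 shRNA libraries, or 3.72 and 3.15 against 1.27 and 1.09 CPM. Both Phf8 shRNA libraries lay below both controls. The log2 fold change was -1.53 ± 0.19 (SE), with an edgeR adjusted p of 3.56e-15.

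Cx3cl1 (ENSMUSG00000031778, chromosome 8, 94772009 to 94782427, plus strand) encodes fractalkine, a chemokine made as a membrane-bound protein that is cut off the cell surface by metalloproteinases and is best known as a neuronal signal to microglia. It was the most abundant ligand gene of the set. It had 653 and 553 reads in the control and 1023 and 920 reads in the Phf8 shRNA libraries, or 15.1 and 13.5 against 23.6 and 25.0 CPM. Both Phf8 shRNA libraries were above both controls. It rose 1.70-fold (log2 0.77 ± 0.07 SE) with an edgeR adjusted p of 1.49e-23. Of its length-scaled total over all 38 chemokine ligand genes, Cx3cl1 held 33.7% and 31.9% in the control and 44.1% and 44.4% in the Phf8 shRNA libraries, while the mean share of Cxcl14 was 17.0% against 4.63%. The ratio of Cx3cl1 to Cxcl14 reads within a library, which no scaling of libraries can change, was 4.06 and 4.29 in the control and 18.6 and 23.0 in the Phf8 shRNA libraries. Neuron markers were higher as well. Of 8 such genes, 7 were tested, 6 rose and 0 fell, and their summed level went from 254 and 259 CPM to 510 and 516 CPM, with Slc17a7 at 0 in both controls. This was not particular to neurons, since 7 of 8 oligodendrocyte lineage markers also rose and 0 fell. Over all genes tested, 24.8% rose. The part of these cell types in the rise of Cx3cl1 was not tested. Cx3cr1, the receptor gene of this ligand and a microglial marker, had 6 and 3 control reads and 0 and 5 Phf8 shRNA reads.

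**Figure D2:**
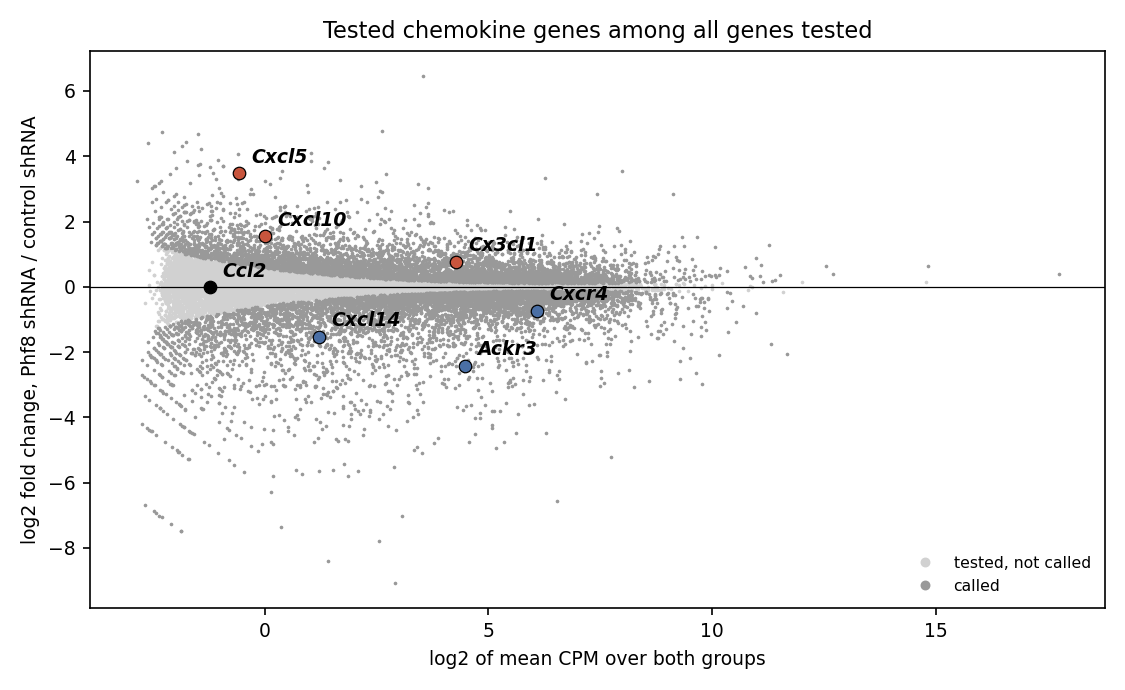
Log2 fold change of every gene tested against the log2 of its mean CPM, with the 7 tested chemokine genes marked in red (higher), blue (lower) or black (Ccl2, not past the test). Cxcl5 lies at the upper and Ackr3 at the lower edge of the cloud at their levels, and Cxcr4 and Cx3cl1 lie nearer to its centre.

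Both receptor genes fell, Ackr3 far more than Cxcr4. Cxcr4 (ENSMUSG00000045382, chromosome 1, 128588199 to 128592293, minus strand) encodes the signalling receptor of Cxcl12 that guides progenitors and migrating neurons. It had 3788 and 3353 reads in the control and 2232 and 1848 reads in the Phf8 shRNA libraries. In CPM it went from 84.7 ± 3.96 to 50.9 ± 0.905 (SD, n = 2), and the groups did not overlap. This was a fall of 1.66-fold (log2 -0.73 ± 0.06 SE) with an edgeR adjusted p of 1.21e-36.

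Ackr3 (ENSMUSG00000044337, chromosome 1, 90203980 to 90216751, plus strand) encodes the atypical receptor, which recruits arrestins in place of G proteins and takes up Cxcl12. It had 1710 and 1444 reads in the control and 299 and 259 reads in the Phf8 shRNA libraries. In CPM it went from 37.4 ± 2.99 to 6.98 ± 0.0990 (SD, n = 2), a 5.36-fold fall (log2 -2.42 ± 0.08 SE) with an edgeR adjusted p of 5.83e-198. Of the genes tested, 2.64% had a larger absolute change than Ackr3 and 22.3% a larger one than Cxcr4. The ratio of Cxcr4 to Ackr3 per exonic length within a library was 4.10 and 4.30 in the control and 13.8 and 13.2 in the Phf8 shRNA libraries. This ratio does not depend on the scaling of libraries, and its shift was far larger than the spread of either pair of libraries.

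Both receptors are also known from cells other than astrocytes, Ackr3 from vascular cells and Cxcr4 from progenitors. Among 10 endothelial markers, 5 were tested, 1 (Kdr) fell and 0 rose. The summed endothelial level went from 6.26 and 6.38 CPM to 2.40 and 2.20 CPM. Without Kdr the other 9 markers summed to 1.78 and 1.88 CPM in the control and 1.96 and 1.72 CPM in the Phf8 shRNA libraries, and Cdh5 had 0 reads in all libraries. Of 11 mural and fibroblast markers, 7 were tested, 3 fell (Rgs5, Kcnj8 and Acta2) and 1 rose (Pdgfrb). Kcnj8 passed the filter on low counts only through its control libraries, so its call was in part set by the filter. The summed mural and fibroblast level was 71.0 and 66.0 CPM in the control and 70.2 and 75.2 CPM in the Phf8 shRNA libraries. Without Pdgfrb that level was 61.4 and 56.5 against 46.4 and 51.2 CPM. Most of it was Cspg4, which is also on the oligodendrocyte lineage list and did not pass the test (47.4 and 42.7 against 45.0 and 49.5 CPM). The 3 that fell went from means of 8.81 to 0.436 (Acta2), 2.67 to 0.505 (Rgs5) and 1.57 to 0.0544 CPM (Kcnj8). Pdgfrb rose from a mean of 9.53 to 23.9 CPM. Of 7 neural progenitor markers, 3 rose (Fabp7, Hes5 and Egfr) and 3 fell (Nes, Prom1 and Mki67), and the sum was 2074 and 2104 CPM against 2315 and 2167 CPM. Without Nes it was 1053 and 1043 CPM against 2098 and 1954 CPM. Of 8 oligodendrocyte lineage markers, 7 rose and 0 fell, and the sum went from 672 and 627 CPM to 1142 and 1112 CPM. These marker counts are to be read against the 24.8% of all genes tested that rose and the 27.3% that fell. The part of these cell types in the falls of Ackr3 and Cxcr4 was not tested.

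The promoters of the ligand and the receptor with the largest falls are shown for comparison with those of Cxcl1 and Cxcl10, with the same span, source and capitals, at chr13:56296502-56296801 (minus strand) and chr1:90203730-90204029 (plus strand).
Cxcl14: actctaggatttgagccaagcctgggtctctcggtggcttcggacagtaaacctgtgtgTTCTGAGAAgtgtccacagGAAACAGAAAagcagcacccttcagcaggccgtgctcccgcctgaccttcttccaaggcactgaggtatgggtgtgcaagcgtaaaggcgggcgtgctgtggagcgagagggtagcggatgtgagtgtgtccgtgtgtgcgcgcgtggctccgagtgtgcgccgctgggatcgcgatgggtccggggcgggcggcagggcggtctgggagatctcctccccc
Ackr3: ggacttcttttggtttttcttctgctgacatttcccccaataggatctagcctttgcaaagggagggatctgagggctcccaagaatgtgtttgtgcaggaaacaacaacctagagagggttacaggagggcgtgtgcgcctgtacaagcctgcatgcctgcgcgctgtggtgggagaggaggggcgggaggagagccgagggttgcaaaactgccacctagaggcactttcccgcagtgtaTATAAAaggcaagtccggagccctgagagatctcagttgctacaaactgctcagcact
In Cxcl14 the capitals are a STAT match followed by an interferon-response-like match, and in Ackr3 they are a TATAAA match that ends 3 bases before the start. Neither sequence, nor those of Cx3cl1, Cxcr4 and Cxcl12, held an NF-kB match. Sequences were found for 7 of the 10 genes. The promoters also differed in CpG content, without a split by direction of change. Cxcl14, which fell, had 22 CpG dinucleotides, Cxcr4, which fell, had 20, and Ackr3, which fell, had 8. Cx3cl1, which rose, had 19 and Cxcl10, which rose, had 10, and the median over all promoters was 7.

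Most other members of the chemokine family had too few reads to be tested. Of 30 further ligand genes, 15 had 0 reads in all libraries and 6 were tested, of which 1 rose and 0 fell. The most abundant were Ccl25, better known from thymus and gut, with 14.3 ± 0.511 against 15.9 ± 0.630 CPM, and Ccl28, a mucosal chemokine, with 5.45 ± 0.0306 against 4.82 ± 0.540 CPM. Neither passed the test (edgeR adjusted p = 0.103 and 0.245). Ccl19, a ligand of Ccr7 that guides lymphocytes and dendritic cells, was the gene that rose, from 13 and 5 to 23 and 15 reads (log2 1.14 ± 0.43 SE, edgeR adjusted p = 0.0169), while Ccr7 had 0 reads. Ccl19 reached the minimum of the filter on low counts in 2 Phf8 shRNA libraries and 1 control library, so its call was in part set by the filter. It also lies inside 4930578G10Rik, a gene on the opposite strand whose exons do not overlap those of Ccl19. That gene, which was not tested, had 4 and 3 control and 7 and 14 Phf8 shRNA reads. Elavl1 on the opposite strand overlaps 2.74% of the exonic length of Ccl25.

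Of 21 further receptor genes, 6 had 0 reads in all libraries and 6 were tested, of which 1 rose and 2 fell. Xcr1, the receptor of Xcl1, fell from 71 and 66 to 25 and 17 reads (log2 -1.63 ± 0.27 SE, edgeR adjusted p = 6.74e-09), with both Phf8 shRNA libraries below both controls. Cxcr6, the receptor of Cxcl16, fell by less, from 173 and 157 to 114 and 131 reads (log2 -0.35 ± 0.15 SE, edgeR adjusted p = 0.0366). Cxcr6 lies inside Fyco1, a gene on the opposite strand with 4799 and 4722 control and 3644 and 2864 Phf8 shRNA reads, which also fell (log2 -0.48). Ackr1, an atypical receptor of blood vessels and red cells, rose from 37 and 35 to 53 and 58 reads (log2 0.70 ± 0.25 SE, edgeR adjusted p = 0.0109), but 25.7% of its exonic length overlaps Cadm3 on the same strand. Cadm3 rose as well (log2 0.30), and reads of both genes could have been split between them. Ccr9 (3.72 ± 0.0965 against 3.26 ± 0.358 CPM) and Ackr4 (1.72 ± 0.150 against 1.90 ± 0.237 CPM) did not pass the test, and 19.0% and 8.90% of their exonic lengths overlap genes on the opposite strand. The counting's strand setting was not stated in the sources used here, so levels of genes that overlap or lie inside a gene on the other strand are uncertain.

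**Figure D3:**
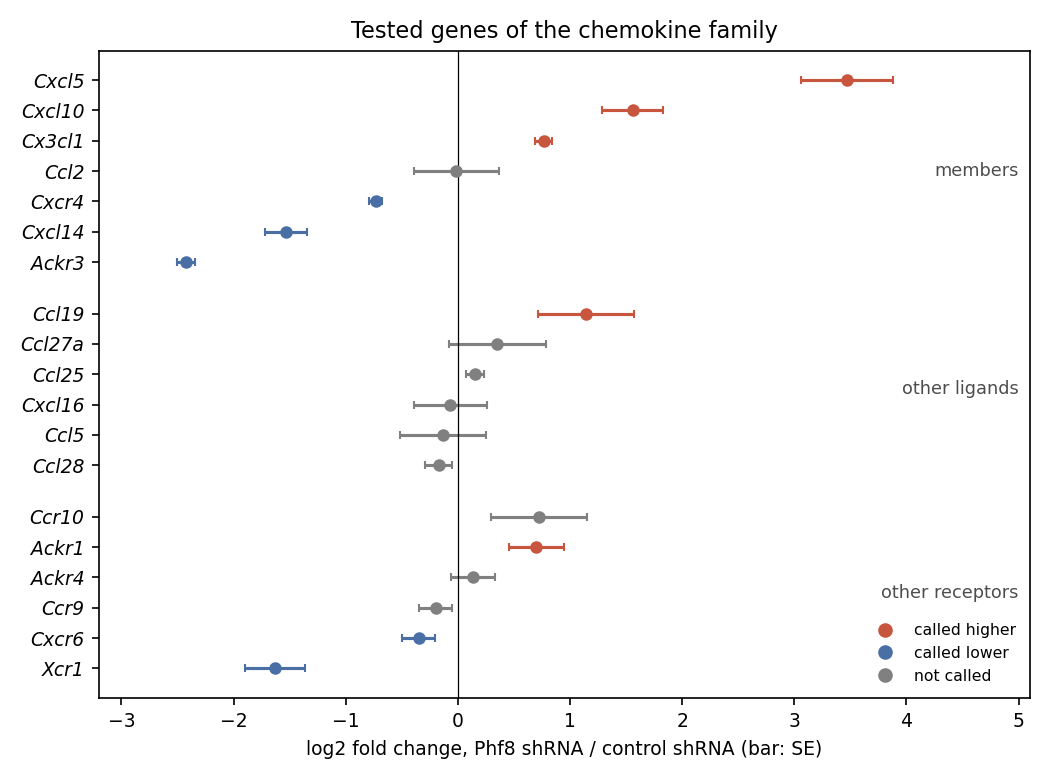
Log2 fold change with its SE for the 19 chemokine family genes that were tested, in red where higher, blue where lower and grey where the test was not passed. Cxcl5, Cxcl10, Cx3cl1, Ccl19 and Ackr1 lie to the right and Cxcr4, Cxcl14, Ackr3, Cxcr6 and Xcr1 to the left.

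Genes that pass on or end the signal of chemokine receptors changed in both directions. Of 30 such genes, 25 were tested, 9 rose and 9 fell (median log2 fold change 0.03). Over all genes tested, 24.8% rose and 27.3% fell. Among those that fell, Pik3r5 (log2 -3.14) passed the filter on low counts only through its control libraries. Pik3cg (log2 -1.78) reached the minimum of that filter in 2 control libraries and 1 Phf8 shRNA library. The count of falls was therefore in part set by the filter. Rgs4, which shortens signals of G proteins, fell from 705 and 739 reads to 71 and 45 (log2 -3.56), and its relative Rgs2 fell as well (log2 -0.61). Elmo1, which with Dock1 activates Rac in migrating cells, rose from 34.0 ± 0.285 to 85.3 ± 1.57 CPM (log2 1.33). The exchange factor gene Prex1 rose with a log2 fold change of 0.56. Arrb1, which encodes an arrestin, rose from 70.7 to 133 CPM (log2 0.91) and Grk3, a kinase that marks active receptors for arrestin, rose by 0.63 on the log2 scale. Among Rgs4, Rgs2, Elmo1, Prex1, Arrb1 and Grk3 the largest edgeR adjusted p was 3.69e-19.

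Several receptors that induce NF-kB were lower. Of 31 genes of NF-kB and its inducing receptors, 27 were tested, 12 fell and 6 rose (median log2 fold change -0.07). Over all genes tested, 27.3% fell and 24.8% rose. The receptor of interleukin-1, Il1r1, fell from 77.3 ± 0.390 to 9.91 ± 2.00 CPM (log2 -2.95), and the double-stranded RNA receptor gene Tlr3 fell from 34.7 ± 0.111 to 12.3 ± 0.366 CPM (log2 -1.50). Myd88, the adaptor of the interleukin-1 receptor, fell by 1.34 and the kinase gene Irak4, which acts with it, by 0.86 on the log2 scale. Ticam1, the adaptor of Tlr3, did not pass the test (log2 0.05, edgeR adjusted p = 0.70). The interleukin-17 receptor gene Il17ra (log2 -0.96) and Nfkbiz (-0.96), a cofactor of NF-kB, fell too. The largest edgeR adjusted p among the 6 genes that fell was 5.28e-08. The other 6 genes that fell were Bcl3 (log2 -3.40), Tlr4 (-3.00), Tnfrsf1a (-0.80), Il1rap (-0.76), Nfkb1 (-0.73) and Rela (-0.22), of which Bcl3 and Tlr4 passed the low-count filter only through their control libraries. The 6 that rose were Tlr2 (log2 0.90), Tnfaip3 (0.79), Nfkbia (0.38), Nfkbie (0.38), Ikbkb (0.19) and Irak1 (0.13). Genes known as targets of NF-kB were thus found in both directions, with Nfkbia and Tnfaip3 higher and Bcl3, Nfkb1 and Nfkbiz lower. The gene of the cytokine Tnf had 0 reads, Il1b had 0 and 0 control and 1 and 1 Phf8 shRNA reads, and Il1a, not tested, had 6 and 15 against 8 and 2.

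Of 17 genes of interferon signalling, 16 were tested, 7 fell and 3 rose (median log2 fold change -0.24), where 27.3% of all genes tested fell and 24.8% rose. Socs3, a feedback inhibitor of cytokine receptors, fell from 33.0 ± 0.357 to 7.73 ± 0.999 CPM (log2 -2.09). The receptor subunit genes Ifngr1 and Ifnar2 fell by 0.95 and 0.68, and Stat2 and Irf9, which act together below the interferon receptors, fell by 0.40 and 0.32 on the log2 scale. Jak1, a kinase of the same receptors, rose by 0.55, and the largest edgeR adjusted p among these 6 genes was 2.99e-05. The rise of Cxcl10, an interferon target, thus stood beside lower levels of these genes, and Ifnb1 had 1 and 0 control and 0 and 0 Phf8 shRNA reads.

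Enzymes that release or trim chemokines were lower in part. Of 11 such genes, 8 were tested, 4 fell and 1 rose (median log2 fold change -0.33), where 27.3% of all genes tested fell and 24.8% rose. Adam10, a protease that cuts Cx3cl1 off the membrane, fell from 143 to 107 CPM (log2 -0.42), whereas Adam17, which does so in activated cells, rose by 0.17 on the log2 scale. Rhbdf1, a partner of Adam17 in its maturation, fell by 0.67, Mmp14 by 0.44 and the carboxypeptidase gene Cpd by 0.41. The largest edgeR adjusted p among these 5 genes was that of Adam17, at 0.00748. Dpp4, which shortens Cxcl12 and Cxcl10, had 4 and 1 control and 0 and 2 Phf8 shRNA reads.

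**Figure D4:**
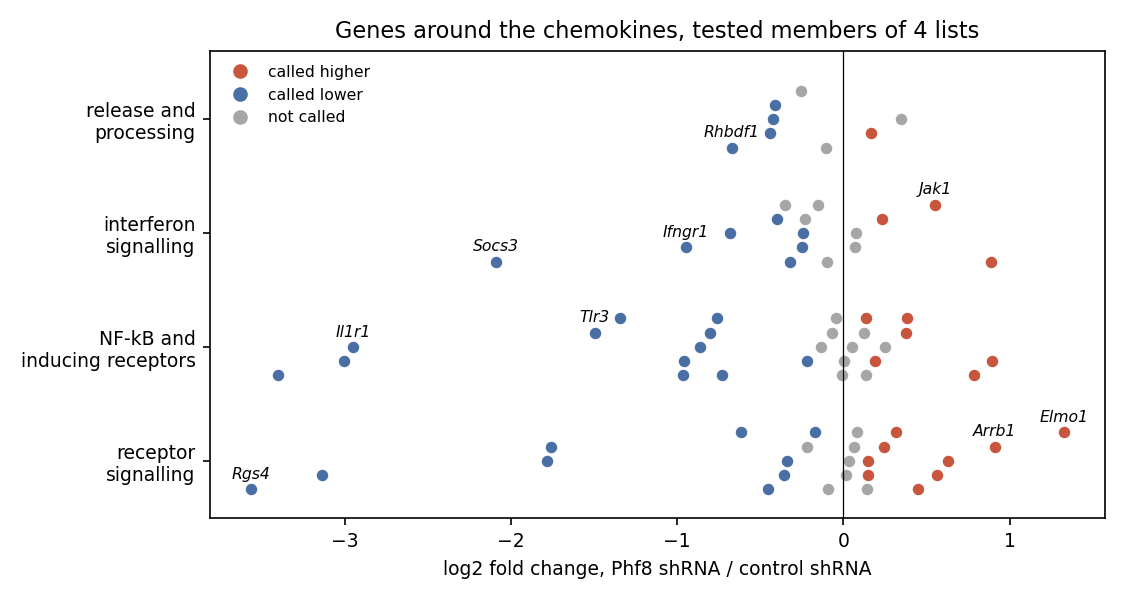
Log2 fold change of each tested gene of 4 lists around the chemokines, spread vertically within a list for legibility, in red where higher, blue where lower and grey where the test was not passed. Rgs4, Il1r1 and Socs3 lie far to the left, as do Bcl3, Pik3r5 and Tlr4, which are not labelled. Elmo1 lies farthest to the right.

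Neighbouring genes within 100 kb changed in both directions, and their few counts are to be read against the 52.1% of all genes tested that changed (24.8% higher, 27.3% lower). Near Cxcl10, 6 genes were tested, 3 fell (Ppef2, Naaa and Sdad1, log2 -0.88, -0.36 and -0.21) and 0 rose, so Cxcl10 went the other way. Near Cx3cl1, 7 were tested and 3 rose (Pllp, Arl2bp and Ciapin1, log2 0.75, 0.18 and 0.17, largest edgeR adjusted p 0.0357). The chemokine genes Ccl17 and Ccl22 beside Cx3cl1 had 2 and 3 control and 2 and 3 Phf8 shRNA reads and 0 reads, respectively. Near Ackr3, 2 genes were tested and both fell. Iqca went from 31 and 21 to 9 and 10 reads (log2 -1.36 ± 0.40 SE), and the noncoding gene Gm28723 from 24 and 19 to 1 and 0 reads. Gm28723 passed the filter on low counts only through its control libraries, and Iqca reached its minimum in 2 control libraries and 1 Phf8 shRNA library. These calls were therefore in part set by the filter. Mthfd2l near Cxcl1 rose by 0.21 on the log2 scale. No neighbour of Cxcl5, Cxcl12 or Cxcl14 was tested, and those tested near Cxcr4, Ccl2 and Ccl7 (1, 1 and 2) did not pass.

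Microglia and macrophages are rich sources of chemokines, and their markers were low. Of 11 markers, 5 were tested, 2 fell (Cd68 and Adgre1, the latter tested only through its control libraries) and 0 rose. Over all genes tested, 27.3% fell and 24.8% rose. Their summed level was 8.94 and 9.62 CPM in the control and 6.10 and 6.18 CPM in the Phf8 shRNA libraries. Tmem119 and Itgam had 1 read each and Trem2 had 0 in all libraries together. Cd68 carried the difference, and without it the other 10 summed to 3.70 and 3.79 CPM in the control and 3.49 and 3.81 CPM in the Phf8 shRNA libraries. The part of these cells in the chemokine levels was not tested.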

How the data were processed

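Per the labels' protocols, RNA was extracted from astrocytes, depleted of ribosomal RNA, made into stranded libraries and sequenced on an Illumina instrument. The deposited values are raw read counts per gene, and the submitters' processing notes name HISAT2, HTSeq, DESeq2 and mm10 without versions. The strand setting and annotation release were not stated in the sources used here. Symbols were found for 55154 of 55421 identifiers, and exonic lengths and overlaps came from GENCODE M21, which held 55240. Deposited coordinates are printed.

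The groups were compared with edgeR 4.0.16 (R 4.3.3, quasi-likelihood F test) on all 4 libraries, with filterByExpr, TMM scaling, no covariates and Benjamini-Hochberg adjustment over 21042 genes, two-sided. It was tested on simulated counts. Depth was 36839530 to 44724759 reads per library, and 3 reads was taken as the floor. Alternatives included other scalings, DESeq2 1.42.0, limma 3.58.1, other filters, left-out libraries and a larger assumed spread. The members and lists were chosen with earlier results of these data known. Named genes were all members, Phf8, other family genes that passed the test or reached 1 CPM in a group, and changed neighbours within 100 kb. From each pathway list, up to 6 changed genes whose mean reached 2 CPM were named. The remaining changed genes of the NF-kB list, Ticam1, Pik3cg and Pik3r5 were named after their values were seen. Further genes are named for 0 or few reads. A marker first placed in the microglia and macrophage list is not reported here and was left out of that list's counts and sums.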

Additional observations from a re-analysis of the deposited data

How the results depend on the processing

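The biological coefficient of variation over n = 2 libraries per group was only 3.64%, and depth limited Cxcl1, Ccl7, Cxcl12 and Ccl2. The count of members that changed (3 higher, 3 lower) was the same under other scalings, DESeq2, limma-voom, other filters, the 0.01 threshold and without each library, where it ranged from 3 to 3 in each direction. With that coefficient set to 0.2, Cx3cl1 and Cxcr4 no longer passed (adjusted p = 0.0568 and 0.0687 in edgeR's likelihood ratio test). With 0.4 only Cxcl5 and Ackr3 passed that test, so that 1 member was higher and 1 lower (adjusted p of Cxcl10 0.219, of Cxcl14 0.189). Cxcl5 was tested only through its Phf8 shRNA libraries, so the count of higher members was in part set by the filter on low counts. Requiring a 2-fold change left 2 higher (Cxcl5 and Cxcl10) and 2 lower (Cxcl14 and Ackr3). Ccl2, which never passed, changed sign to 0.067 with the upper quartile, 0.039 with limma-voom and 0.0014 with the replicate block, and ranged from -0.41 to 0.50 with 1 library left out (above 0 without control shRNA replicate 2 or Phf8 shRNA replicate 2). Over all genes, 5225 were higher and 5740 lower. Higher and lower counts were 3170 and 4342 with DESeq2, 3317 and 3893 with the coefficient at 0.1, 1262 and 2043 at 0.2, 172 and 639 at 0.4, and 1157 and 1833 at 2-fold or more. Without 1 library they ranged from 4038 to 4755 higher and from 4917 to 5480 lower. Higher genes were 47.6% of the calls with TMM, 58.0% with the upper quartile and 40.3% with library size alone. The replicate numbers were not shown to pair the libraries (correlation of deviations -0.001), and the replicate block gave 5202 and 5727 with 3 and 3 members.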
